A study of Mus musculus with 12 samples.

Results

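The 9 genes followed here are known to be switched on by p53, and most hold p53 back or slow the cell cycle. They were measured on the 12 arrays of this series: Cdkn1a, Btg2, Mdm2, Mdm4, Ppm1d, Ccng1, Trp53inp1, Phlda3 and Zmat3. They were taken by name, as the brightest probe set that the platform annotation gives to each symbol alone. All 9 were found and all 9 passed the brightness limit, which left 15348 of 22180 named genes for testing.

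LSK cells are the lineage-negative, SCA1-positive, cKIT-positive fraction of mouse bone marrow, where blood stem and early progenitor cells are found. They came from mice of more than 20 months that were wild type (WT) or lacked NIPA (KO), the protein of Zc3hc1, on a C57BL/6 background reached by repeated backcrossing. Each sample pooled the sorted cells of 3 mice, so values of single animals are not seen. The 4 groups of 3 arrays are untreated WT, WT given 4 Gy of ionizing radiation, untreated KO and irradiated KO, and all were harvested after 3 h of culture with serum, IL-3, IL-6 and SCF, which the untreated cells received too. The labels do not say how the KO allele was made, nor that arrays of a group came from separate experiments, so p-values measure the spread between these arrays.

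p53 is a transcription factor that ionizing radiation stabilizes through the kinases ATM and CHK2. Among the genes it activates, Cdkn1a (p21) and Btg2 slow the cell cycle, while Mdm2, Mdm4, Ppm1d (WIP1) and Ccng1 act back on p53 or its kinases and limit the response. In blood stem cells this circuit is known to govern quiescence and survival after DNA damage.

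The value of Zc3hc1 lay between 7.67 and 8.47 on the log2 scale in the 6 WT arrays and between 5.61 and 5.82 in the 6 KO arrays, so every KO label fits its array. Array medians ranged from 5.74 to 5.85. Of 10 markers of stem and progenitor cells, 9 had a named probe set, with a mean log2 value of 8.79 to 9.35 in single arrays. No probe set is named here for Ly6a, the gene of SCA1. These are bulk samples, in which fewer cells of a type and less RNA per cell cannot be told apart.

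The annotated start sites of the 9 genes were searched for the p53 consensus, a pair of 10-base elements. The genes were picked as known p53 targets, so matches there are no independent evidence. RefSeq windows (GRCm38.p6, 250 bases before to 50 after an annotated start) were at hand for 7 of the 9 genes, with more than 1 window for Cdkn1a and Mdm4. A full match to the 10-base p53 consensus element, which reads alike on both strands, was found for 4 of these 7 genes. Over all 32851 windows the share with such a match was 8.36%, and over all 27025 genes it was 9.55%. With both elements joined, Cdkn1a and Ccng1 each held a 20-base match with 1 departure from the consensus, which 0.0883% of all windows hold with 1 departure or none. The stretches are shown for these 4 genes because they hold the matches. Each stretch holds the match in capitals with 20 bases on either side, and the coordinates are those of the whole stretch. The stretches are chr17:29090908-29090967 (plus strand) for Cdkn1a, chr11:40755442-40755501 (minus strand) for Ccng1, chr10:117710915-117710964 (minus strand) for Mdm2 and chr11:85311102-85311151 (plus strand) for Ppm1d. Capitals mark the 20-base match in Cdkn1a, which begins 51 bases before the farther upstream of its annotated starts, and in Ccng1, 195 bases before the annotated start. They mark the 10-base match in Mdm2, 186 bases before, and in Ppm1d, 132 bases before.
Cdkn1a: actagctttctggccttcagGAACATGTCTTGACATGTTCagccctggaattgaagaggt
Ccng1: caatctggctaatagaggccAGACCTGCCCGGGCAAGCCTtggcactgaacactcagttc
Mdm2: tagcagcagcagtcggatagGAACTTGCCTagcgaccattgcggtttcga
Ppm1d: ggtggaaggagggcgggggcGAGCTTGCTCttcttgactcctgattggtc

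The Cdkn1a window that holds this match is the one that lies farther upstream of its pair, and it has a second 10-base match 73 bases before the start. The other Cdkn1a window holds no 10-base match. No 10-base match lay in the windows of Btg2, Mdm4 and Phlda3, which says only that these letters are not there. The p53-responsive promoter known for Mdm2 lies in an intron, and other promoters of these genes were not searched. Binding was not measured in this series.

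All 9 genes rose after irradiation in WT cells and all 9 rose in KO cells, by 0.62 to 2.78 on the log2 scale. The tests were limma fits over all 12 arrays, adjusted by Benjamini-Hochberg over the 15348 genes, with a threshold of 0.05. In the same fit 2.13% of all genes rose in WT and 2.74% in KO cells, and the median change was 1.60 for the 9 genes against 0.00 for all genes in WT, and 1.51 against -0.02 in KO cells. In each genotype the 3 irradiated arrays lay above the 3 untreated ones for all 9 genes, which holds for 11.4% of all genes in WT and 10.2% in KO cells. The genes were picked as known p53 targets with such results at hand, so their direction is no independent evidence. Same-numbered untreated and irradiated WT arrays deviated together, while same-numbered KO arrays did not all do so. With same-numbered arrays of both genotypes paired as a block, 510 genes rose in WT cells instead of 327, with all 9 among them.

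**Figure D1:**
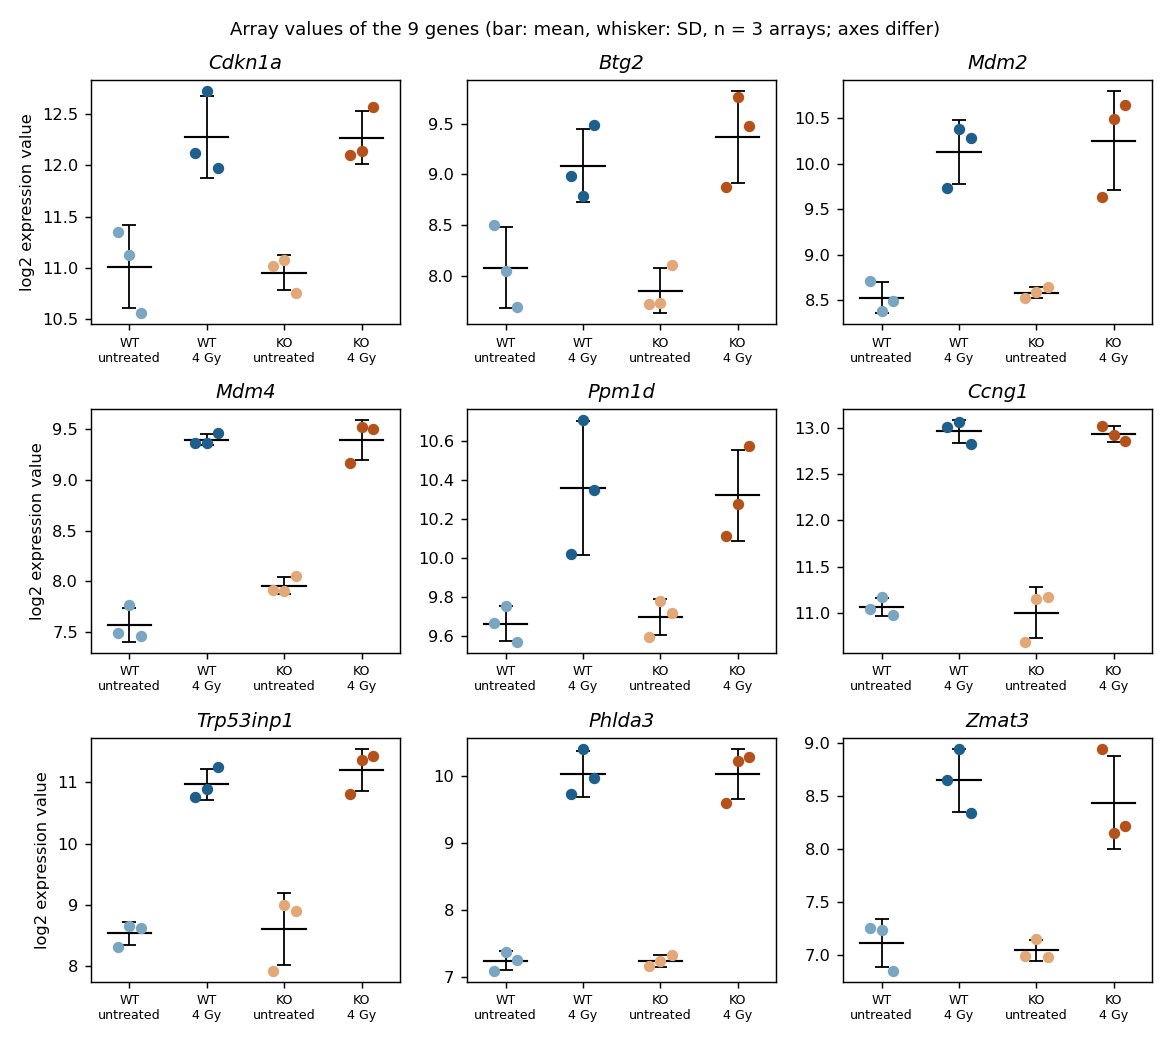
Log2 expression values of the 9 genes (y axis, a separate scale for each panel) in the 4 groups (x axis), 1 point per array, with the mean as a bar and the SD as a whisker (n = 3). In each panel the irradiated arrays lie above the untreated arrays of the same genotype.

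Mdm2 encodes the ubiquitin ligase that marks p53 for destruction, and it rose 3.03-fold in WT and 3.17-fold in KO cells. In WT cells the untreated arrays read 8.71, 8.38 and 8.50 (log2) against 9.73, 10.38 and 10.28 after irradiation. In KO cells the values were 8.52, 8.59 and 8.64 before and 9.63, 10.48 and 10.64 after. The untreated arrays sit close together in both genotypes, and the irradiated array numbered 1 is the lowest of its group in each. The differences were 1.60 (SE 0.24, limma adjusted p = 0.0021) in WT and 1.67 (SE 0.24, adjusted p = 0.0016) in KO cells.

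Mdm4, the MDM2 relative that binds p53 and blunts its activity without being a strong ligase itself, rose about as much as Mdm2. WT arrays gave log2 values of 7.48, 7.76 and 7.46 untreated and 9.36, 9.37 and 9.46 irradiated. KO arrays gave 7.91, 7.91 and 8.05 untreated and 9.16, 9.52 and 9.50 irradiated. Irradiated WT arrays differed by little (SD 0.06, n = 3), and the untreated KO arrays all lie above the untreated WT arrays. The differences were 1.83 (SE 0.12, limma adjusted p = 1.2e-05) in WT and 1.44 (SE 0.12, adjusted p = 4.9e-05) in KO cells, a 3.56-fold and a 2.71-fold rise.

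Ppm1d encodes WIP1, a phosphatase that removes activating phosphates from p53, ATM and CHK2, and its rise was the smallest of the 9. In WT cells the log2 values were 9.67, 9.75 and 9.57 untreated and 10.02, 10.71 and 10.35 irradiated. In KO cells they were 9.60, 9.78 and 9.72 untreated and 10.11, 10.27 and 10.57 irradiated. Irradiated arrays spread more widely (SD 0.34 in WT and 0.23 in KO) than untreated ones (SD 0.09 in each), without overlap. The differences were 0.69 (SE 0.17, limma adjusted p = 0.033, 1.62-fold) in WT and 0.62 (SE 0.17, adjusted p = 0.047, 1.54-fold) in KO cells.

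The calls for Ppm1d were close to the threshold. The WT call was lost without untreated WT array 1, 2 or 3 (adjusted p = 0.065, 0.084 and 0.13), without irradiated WT array 2 or 3 (0.091 and 0.10) and when KO arrays were dropped (0.061). The KO call was lost without untreated KO array 1, 2 or 3 (0.15, 0.11 and 0.10), without irradiated KO array 2 or 3 (0.11 and 0.18), and without untreated WT array 1, 2 or 3 (0.061, 0.064 and 0.064) or irradiated WT array 3 (0.062). It was also lost without a brightness limit (0.056), with array medians subtracted (0.051) and with only the KO arrays (0.059). Where the call was lost, the difference itself lay between 0.50 and 0.74.

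Ccng1, the gene of cyclin G1, which brings a phosphatase to MDM2 and so favours p53 turnover, showed the most even rise of the 9 over same-numbered WT arrays, from 1.84 to 1.96. Untreated WT values were 11.05, 11.17 and 10.98 and irradiated ones 13.00, 13.06 and 12.82. KO values were 10.69, 11.15 and 11.18 untreated and 13.02, 12.92 and 12.86 irradiated. All 6 irradiated arrays fall within a narrow band, and untreated KO array 1 is lower than the other untreated arrays. Cyclin G1 rose by 1.90 (SE 0.14, limma adjusted p = 1.3e-05) in WT and by 1.93 (SE 0.14, adjusted p = 1.7e-05) in KO cells, 3.72-fold and 3.80-fold.

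Cdkn1a encodes p21, the inhibitor of cyclin-dependent kinases through which p53 arrests cells in G1. Its log2 values were already high without irradiation, at 11.35, 11.12 and 10.56 in WT and 11.02, 11.08 and 10.76 in KO cells. After irradiation they were 12.12, 12.72 and 11.98 in WT and 12.10, 12.13 and 12.56 in KO cells. No irradiated array reaches down to an untreated one, although untreated WT arrays spread widely (SD 0.41, n = 3). The rises were 1.26 (SE 0.23, limma adjusted p = 0.0079) and 1.31 (SE 0.23, adjusted p = 0.0053), or 2.39-fold in WT and 2.49-fold in KO cells.

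Btg2, an antiproliferative adaptor of the BTG and TOB family that recruits the deadenylation machinery to mRNA, had the widest spread of the 9 over same-numbered WT arrays, from 0.49 to 1.79. Untreated WT arrays gave 8.50, 8.05 and 7.70 and irradiated ones 8.99, 8.78 and 9.49. KO arrays gave 7.73, 7.73 and 8.11 untreated and 8.87, 9.76 and 9.48 irradiated. The groups do not overlap, but untreated WT array 1 comes close to irradiated WT array 2. The differences were 1.00 (SE 0.26, limma adjusted p = 0.044, 2.01-fold) in WT and 1.51 (SE 0.26, adjusted p = 0.0045, 2.85-fold) in KO cells.

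The WT call of Btg2 depended on single arrays. It was lost without untreated WT array 2 or 3 (adjusted p = 0.14 and 0.18) and without irradiated WT array 1 or 3 (0.072 and 0.17). It was also lost without untreated KO array 1, 2 or 3 (0.060, 0.061 and 0.052), without irradiated KO array 3 (0.054), which all share in the estimate of the spread, and without a brightness limit (0.053). The KO call held under every alternative run.

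Trp53inp1, whose nuclear protein binds p53 and favours its pro-apoptotic phosphorylation, rose 5.41-fold in WT and 6.09-fold in KO cells. In WT arrays the log2 values went from 8.31, 8.66 and 8.62 untreated to 10.76, 10.89 and 11.25 irradiated. In KO arrays they went from 7.92, 8.99 and 8.89 to 10.81, 11.37 and 11.44. Untreated KO array 1 lies about 1 log2 unit below the other untreated KO arrays, and irradiated KO array 1 is also the lowest of its group. The rises were 2.44 (SE 0.26, limma adjusted p = 0.00024) in WT and 2.61 (SE 0.26, adjusted p = 0.00017) in KO cells.

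Phlda3 encodes a small pleckstrin homology protein that competes with AKT for membrane lipids and thereby restrains survival signalling. Its rise was the largest of the 9, 6.87-fold in WT and 6.88-fold in KO cells. WT log2 values were 7.10, 7.38 and 7.25 untreated and 9.72, 10.39 and 9.96 irradiated. KO values were 7.16, 7.25 and 7.33 untreated and 9.60, 10.21 and 10.27 irradiated. More than 2 log2 units part the groups in each genotype. Both differences were 2.78 (SE 0.19), with limma adjusted p = 1.2e-05 in WT and 1.7e-05 in KO cells, and ranked 5 and 9 from the highest among the 15348 genes.

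Zmat3 encodes a zinc finger protein that binds RNA and is known as a mediator of p53-dependent growth control. Untreated WT arrays gave 7.25, 7.23 and 6.85 and irradiated ones 8.65, 8.95 and 8.34. KO arrays gave 6.99, 7.15 and 6.98 untreated and 8.94, 8.15 and 8.22 irradiated. Irradiated KO array 1, low for most of the 9 genes, is the highest of its group here. The differences were 1.54 (SE 0.21, limma adjusted p = 0.0013, 2.90-fold) in WT and 1.40 (SE 0.21, adjusted p = 0.0023, 2.63-fold) in KO cells. A further probe set that the annotation gives to Zmat3 together with another symbol was not used.

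**Figure D2:**
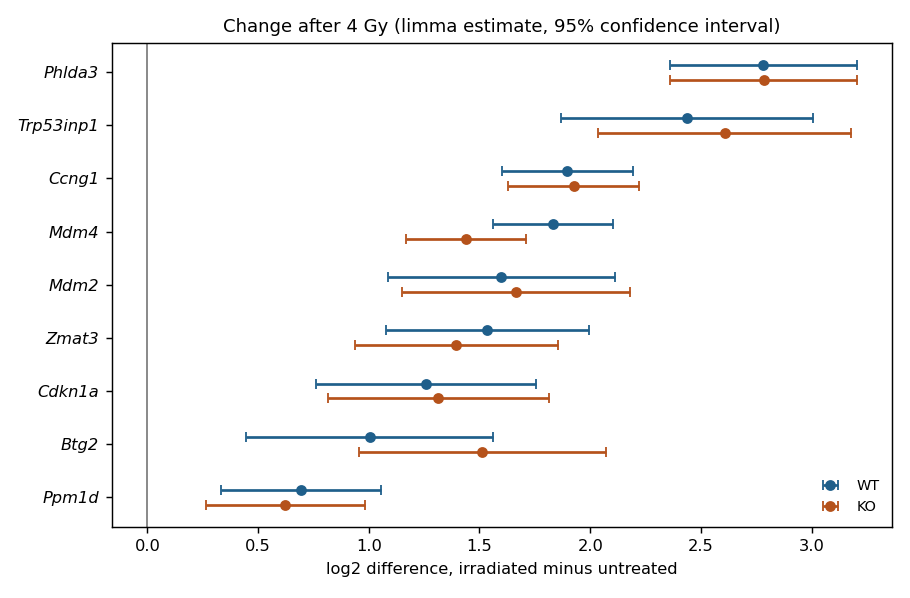
Change after 4 Gy (x axis, log2 difference between irradiated and untreated arrays) for each of the 9 genes (y axis) in WT and KO cells, as limma estimates with 95% confidence intervals. Phlda3 and Trp53inp1 are at the top and Ppm1d at the bottom, and no interval reaches 0.

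Averaged over both genotypes, the order of the changes ran from Phlda3 (2.78) through Trp53inp1 (2.52), Ccng1 (1.91), Mdm4 (1.64), Mdm2 (1.63), Zmat3 (1.47), Cdkn1a (1.29) and Btg2 (1.26) to Ppm1d (0.66). These are differences on the log2 scale and not levels, and all 9 passed limma's test in this contrast, in which 6.90% of all genes rose. The 95% confidence intervals of neighbours in this order overlap in every case, and the distance between the ends is larger than the intervals, 2.48 to 3.08 for Phlda3 against 0.40 to 0.91 for Ppm1d. All the genes but Ppm1d and Btg2 were among the highest 1% of genes in both genotypes. Btg2 stood in the highest 1.13% in WT and 0.56% in KO cells, and Ppm1d in the highest 2.53% and 3.81%.

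Single arrays differed in how far the 9 genes moved. Against the mean of the untreated arrays of the same genotype, the median change of the 9 genes was 1.54, 1.83 and 1.75 in irradiated WT arrays 1, 2 and 3 and 1.21, 1.90 and 1.62 in irradiated KO arrays 1, 2 and 3. Irradiated KO array 1 was the lowest of its group for 7 of the 9 genes and the highest for the other two, Ccng1 and Zmat3. Irradiated WT array 1 was the lowest for 5 and the highest for 0. Untreated KO array 1 was also the lowest of its group for 6 genes.

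**Figure D3:**
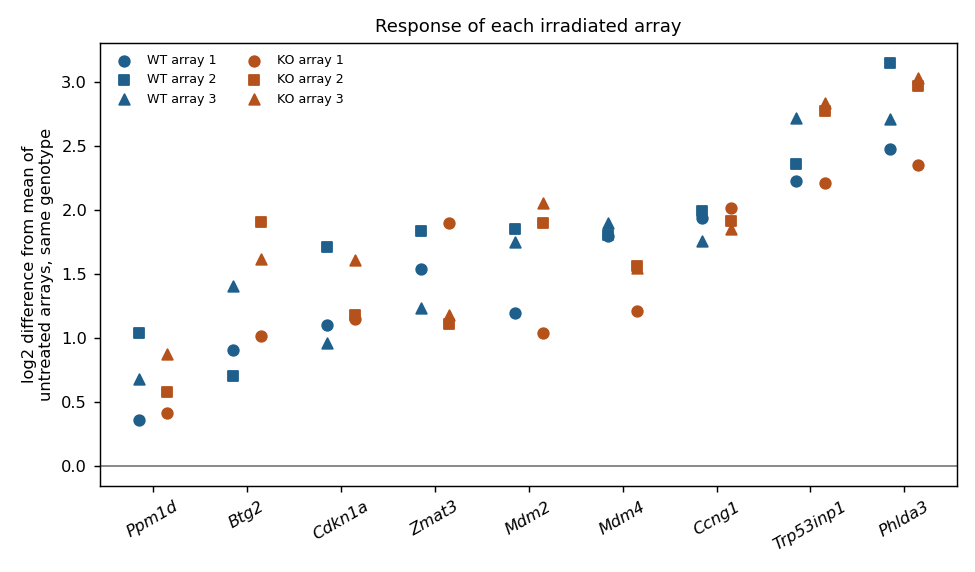
Log2 difference of each irradiated array from the mean of the untreated arrays of its genotype (y axis) for the 9 genes (x axis), with colour for genotype and marker shape for array number. All points lie above 0, the lowest at 0.36 for Ppm1d in WT array 1 and the highest at 3.15 for Phlda3 in WT array 2.

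Whether the response differed between genotypes was tested as the interaction, the KO change minus the WT change. None of the 9 genes passed limma's test for it, and 0 of the 15348 genes did (0%, with 235 at an unadjusted p under 0.05). The interval of the difference was narrowest for Mdm4 and Ccng1. For Phlda3 the interaction was 0.00 (95% confidence interval -0.60 to 0.60), for Cdkn1a 0.05 (-0.65 to 0.76), for Mdm2 0.07 (-0.66 to 0.79) and for Ccng1 0.03 (-0.39 to 0.45). Btg2 had the largest positive value, 0.51 (-0.28 to 1.30). Mdm4 had the largest negative one, -0.39 (-0.78 to -0.01), with an unadjusted p = 0.046 and an adjusted p = 1 in limma's fit. As ratios of the KO to the WT fold change, the limits reach from 0.58 for Zmat3 and Mdm4 to 2.46 for Btg2, so like values do not show a like response.

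Levels of the 9 genes in KO against WT cells did not pass the test at either dose. The test called 1 gene of all, or 0.00652%, without irradiation, after it and in the average of both doses, and this gene was Zc3hc1. Without irradiation the KO minus WT differences ran from -0.22 for Btg2 to 0.39 for Mdm4, and after irradiation from -0.21 for Zmat3 to 0.28 for Btg2. Mdm4 was 7.57 ± 0.17 in untreated WT and 7.96 ± 0.08 in untreated KO arrays (SD, n = 3), a difference of 0.39 (95% confidence interval 0.12 to 0.66, 1.31-fold, limma unadjusted p = 0.0086, adjusted p = 1). It was the 1 gene of the 9 whose untreated WT and KO arrays did not overlap, a state found in 7.96% of all genes. After irradiation Mdm4 was 9.40 ± 0.06 in WT and 9.40 ± 0.20 in KO arrays, and 0 of the 9 genes were free of overlap, against 6.40% of all genes. The mean log2 value of 3 erythroid markers was 7.20 to 7.53 in untreated KO arrays and 6.59 to 7.08 in untreated WT arrays. None of the 3 passed the test. Car1 had a difference of 1.16 (adjusted p = 1), Epor of 0.19 and Klf1 of 0.17, and their part in the Mdm4 difference was not tested.

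**Figure D4:**
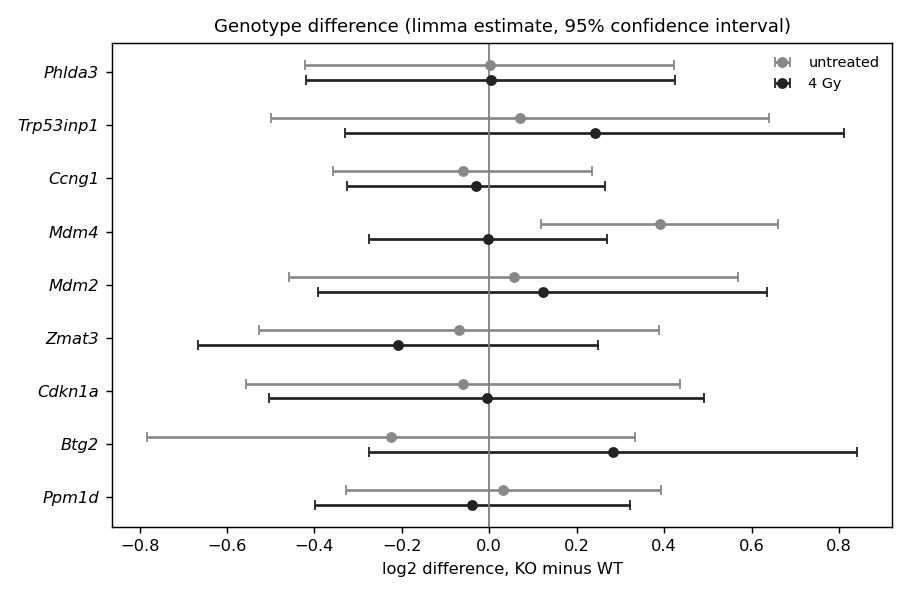
Difference between KO and WT cells (x axis, log2, limma estimate with 95% confidence interval) for each of the 9 genes (y axis), without irradiation and after 4 Gy. All intervals include 0 except that of untreated Mdm4, at 0.12 to 0.66.

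Many other genes that p53 is known to activate rose as well. Of 40 listed from textbook knowledge 34 were tested. Of these 18 rose and 0 fell in WT cells (median 1.08), and 19 rose and 0 fell in KO cells (median 1.05). Of all genes, 2.13% rose in WT and 2.74% in KO cells. In the average over both genotypes 23 of the 34 rose and 0 fell, while 6.90% of all genes rose. The list was chosen with earlier results of these data known, so its counts are no independent evidence. The list genes with the smallest p in WT cells were Dcxr, Psrc1, Eda2r and Tnfrsf10b. Dcxr, an enzyme of carbonyl reduction, had 2.51 (SE 0.14, limma adjusted p = 4.9e-06) and Psrc1, a spindle protein, 2.16. Eda2r, a death receptor of the TNF family, had 2.69, and Tnfrsf10b, a receptor of TRAIL, 2.64. Of list genes that act in apoptosis, Fas, a death receptor, rose by 2.18 in WT and 2.67 in KO cells, Pmaip1 (NOXA) by 1.52 and 1.89 and Bbc3 (PUMA) by 1.07 and 0.95. Perp, a membrane protein also tied to apoptosis, had 1.08 (adjusted p = 0.10) in WT and 1.04 (0.11) in KO cells, and passed with the replicate number as a block (0.043 and 0.045). The KO call of Bbc3 was lost without untreated KO array 2 or 3 (adjusted p = 0.073 and 0.055) or irradiated KO array 2 (0.066). The sestrins, which sense stress and curb mTOR, parted, with Sesn2 up by 1.70 in WT and 1.77 in KO cells and Sesn1 at -0.09 (adjusted p = 0.82) and -0.49 (adjusted p = 0.11). No probe set is named here for Bax, and those of Gadd45a carry several symbols.

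Few genes that act on p53 passed the test within a genotype. Of 18 listed regulators 16 were tested, of which 0 rose and 1 fell in each genotype. The medians were 0.11 in WT and 0.05 in KO cells. Of all genes, 2.13% rose and 2.70% fell in WT cells, and 2.74% rose and 3.20% fell in KO cells. A list of 16 genes is too short to set its counts apart from these shares. In the average over both genotypes 2 regulators rose and 2 fell, against 1059 rises and 1473 falls among the 15348 genes. Atm, the kinase that starts the p53 response to double-strand breaks, fell by 0.74 (SE 0.12, limma adjusted p = 0.0037) in WT and by 0.97 (SE 0.12, adjusted p = 0.00063) in KO cells. Without irradiation Atm was 0.59 higher in KO than in WT cells (unadjusted p = 0.00034, adjusted p = 1). Trim24, a ubiquitin ligase of p53, had 0.47 (adjusted p = 0.081) in WT and 0.49 (0.068) in KO cells. It passed in WT cells with the arrays paired by number within genotype (0.044), with the replicate number as a block over all groups (0.032) and without irradiated WT array 1 (0.025), and the count of rises was then 1. In KO cells it passed under the same settings (0.036, 0.025 and 0.035) and with cyclic loess (0.040). Chek2 had 0.32 (adjusted p = 0.27) in WT and 0.24 (0.42) in KO cells, Cdkn2a, whose ARF product inhibits MDM2, had 0.17 (0.43) and 0.16 (0.47), and Usp7, a deubiquitinase of MDM2 and p53, had 0.00 (0.99) and -0.06 (0.89). Hipk2, a kinase of p53, had 0.06 (0.88) and -0.02 (0.97). No probe set is named here for Trp53 itself.

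**Figure D5:**
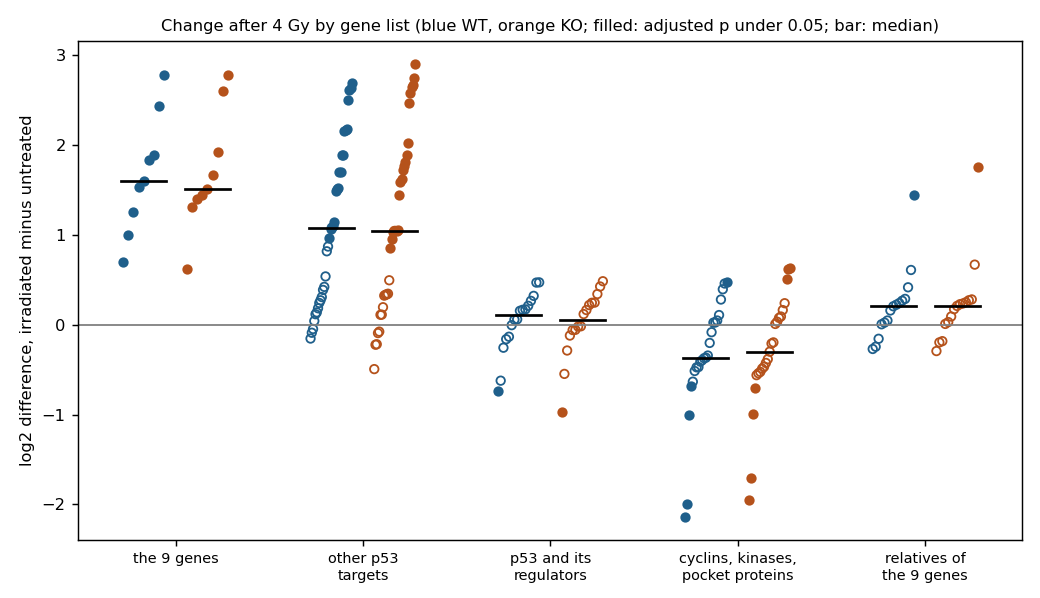
Change after 4 Gy (y axis, log2 difference) of the tested genes in the 9-gene group and 4 lists (x axis), in WT and KO cells, with filled points for limma adjusted p under 0.05 and a bar at the median. The 9 genes and part of the other p53 targets lie well above 0, and few regulators or relatives of the 9 genes pass the test.

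A list of genes of cell cycle arrest, with cyclins, their kinases, pocket proteins, E2F and MuvB genes, Pcna and other kinase inhibitors, included both falls and rises. Of 23 tested genes, 4 fell and 1 rose in WT cells (median -0.37), and 4 fell and 3 rose in KO cells (median -0.30). Of all genes, 2.70% fell and 2.13% rose in WT cells, and 3.20% fell and 2.74% rose in KO cells. In the average over both genotypes 10 of the 23 fell and 3 rose, against 1473 falls and 1059 rises among the 15348 genes. This list too was chosen with earlier results known, so its counts are no independent evidence. The count of falls in KO cells became 8 without irradiated KO array 1 or with the replicate number as a block, and 7 with the block within genotype. Cdk1, the kinase of mitotic entry, fell by 2.14 (SE 0.25, limma adjusted p = 0.00037) in WT and by 1.95 in KO cells, and cyclin A2 (Ccna2) fell by 2.00 and 1.71. Rbl1, the pocket protein p107, fell by 1.00 in each. Cdk2 fell by 0.68 in WT cells (adjusted p = 0.014) and had -0.49 (adjusted p = 0.058) in KO cells. The WT call of Cdk2 was lost without untreated WT array 2 or 3 (adjusted p = 0.074 and 0.050) or irradiated WT array 3 (0.063). The 1 rise in WT was that of Rbl2, the pocket protein p130 of the quiescence complex, by 0.48 (adjusted p = 0.038), and in KO cells it rose by 0.62 (adjusted p = 0.0094). The WT call of Rbl2 was lost without any 1 of the 6 WT arrays (adjusted p = 0.063 to 0.13), untreated KO array 2 (0.054) or irradiated KO array 2 (0.050), with array medians subtracted (0.060) and when KO arrays were dropped (0.064). In KO cells the other rises were those of Rb1, the retinoblastoma protein, by 0.51 (adjusted p = 0.029) and Cdkn2b (p15) by 0.63 (0.048), and the remaining fall was that of Ccne1 (cyclin E1), by 0.70 (0.038). The KO call of Rb1 was lost without untreated KO array 1 or 2 (0.12 and 0.080), irradiated KO array 2 or 3 (0.099 and 0.074), when WT arrays were dropped (0.056) and with the mean of its rows (0.22). In WT cells Rb1 had 0.46 (0.053) and passed with untreated WT array 1 (0.039) or irradiated WT array 2 (0.040) left out, and under 3 other settings (0.038 to 0.049), but with the mean of its rows its WT difference was 0.00 (adjusted p = 1). The KO call of Ccne1 was lost without untreated KO array 1 or 2 (0.13 and 0.16), irradiated KO array 2 (0.14), untreated WT array 2 or 3 (0.056 and 0.053) or irradiated WT array 3 (0.050), and under 4 other settings (0.051 to 0.12). The KO call of Cdkn2b was lost without untreated KO array 1, 2 or 3 (0.12, 0.072 and 0.15), irradiated KO array 2 or 3 (0.17 and 0.093), untreated WT array 1, 2 or 3 (0.054, 0.064 and 0.068) or irradiated WT array 2 or 3 (0.052 and 0.062), and under 3 other settings (0.052 to 0.11).

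Relatives of the 9 genes mostly did not pass the test. Of 15 tested relatives 1 rose and 0 fell in each genotype, with medians of 0.21 in WT and in KO cells. Of all genes, 2.13% rose in WT and 2.74% in KO cells, and 15 genes are too few to set the count apart. In the average over both genotypes 2 of the 15 rose, while 6.90% of all genes rose. The 1 rise in each genotype was that of Tob1, an antiproliferative protein of the Btg2 family. Tob1 rose by 1.44 (SE 0.15, limma adjusted p = 0.00023) in WT and 1.75 (adjusted p = 5e-05) in KO cells. Btg1, another of this family, had 0.29 (adjusted p = 0.59) in WT and 0.28 (0.62) in KO cells. Beside Cdkn1a, the kinase inhibitor Cdkn1b (p27) had 0.05 (0.88) in WT and -0.20 (0.45) in KO cells. Beside Ccng1, Ccng2 had 0.22 (0.32) and 0.21 (0.36), beside Ppm1d, Ppm1a had 0.42 (0.14) and 0.24 (0.42), beside Trp53inp1, Trp53inp2 had 0.21 (0.63) and 0.25 (0.57), and beside Phlda3, Phlda1 had 0.61 (0.14) and 0.67 (0.096). Phlda1 passed in WT cells without untreated WT array 1 (0.026), in KO cells without untreated WT array 1 or 3 (0.043 and 0.026) or when WT arrays were dropped (0.047), and Ppm1a passed in WT cells without irradiated WT array 1 (0.034).

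The genes whose profile over the 12 arrays lay closest to each of the 9 were found by the root mean square difference of log2 values, each gene centred on its own mean. All genes share these 12 arrays, and the distances are a description. The smallest distances were those of Ppm1d to Mettl6 (0.09) and Gss (0.11), of Mdm2 to Inka2 (0.11) and to the translesion polymerase gene Polk (0.14), and of Zmat3 to Ei24 (0.13). Btg2 lay closest to Efnb2 (0.16), Mdm4 to Thap6 (0.18), Ccng1 to Psrc1 (0.20) and Tob1 (0.20), Cdkn1a to Dusp16 (0.23), Phlda3 to Epha2 (0.24) and Trp53inp1 to Plxna1 (0.25). Each of the 9 had at least 1 gene outside the group closer to it than any other of the 9. With 15348 genes tested, outside genes far outnumber the members, so this does not show how alike the 9 are. The distances were not scaled to the size of a gene's change, which was smallest for Ppm1d. The nearest pair within the group was Mdm2 and Mdm4, at 0.27.

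Of 3 tested markers of red cell precursors, 1 fell in WT cells and 2 fell in KO cells after irradiation. Among all genes 2.70% fell in WT and 3.20% in KO cells. The sort had removed cells that carry TER119, a surface marker of later erythroid cells. The mean log2 value of the 3 was 6.59 to 7.08 in untreated and 5.77 to 5.97 in irradiated WT arrays, and 7.20 to 7.53 and 5.62 to 6.15 in KO arrays. Car1, a carbonic anhydrase of these cells, fell by 2.24 (SE 0.27, limma adjusted p = 0.00054) in WT cells. In KO cells Car1 fell by 3.16 (limma adjusted p = 4.6e-05). Epor, the erythropoietin receptor, had -0.42 (0.12) in WT cells and fell by 0.67 in KO cells (0.016), a call lost without untreated KO array 1 or 2 (0.051 and 0.082) or irradiated KO array 2 (0.061). Klf1, an erythroid transcription factor, had -0.18 (0.63) and -0.43 (0.20). Of 9 tested stem and progenitor markers, 1 fell in WT and 2 fell in KO cells, 0 rose in either, and the list medians were -0.10 and -0.07. Among all genes 2.13% rose in WT and 2.74% in KO cells, and 9 genes are too few to set these counts apart. Flt3, a receptor of multipotent progenitors, fell by 1.30 in WT (adjusted p = 0.00058) and by 0.96 in KO cells (0.0037). Meis1 fell by 0.74 in KO cells (0.014), a call lost without untreated KO array 2 or 3 (0.064 and 0.052) or irradiated KO array 3 (0.057). Mecom had 0.84 (0.27) in WT and 0.74 (0.35) in KO cells, and Procr had 0.56 (0.37) and 0.77 (0.21). Procr passed in KO cells without irradiated KO array 1 (0.028). The part of these markers in the rise of the 9 genes was not tested. In WT cells the mean of 5 monocyte markers was 7.87 to 8.12 untreated and 7.72 to 7.77 irradiated, and that of 5 T and NK cell markers was 5.83 to 5.89 and 5.90 to 6.10, with overlap in KO cells for both. Only 3 of the 5 T and NK cell markers passed the brightness limit and were tested. Of these, Nkg7 had -0.07 in WT cells, Cd3d 0.16 and Cd3g 0.24. Group means of Cd3d and Cd3g in WT cells, at 4.64 to 5.53, lay near or under the brightness limit. No tested gene of either list passed. For the megakaryocyte, granulocyte and B cell markers the ranges of untreated and irradiated arrays overlapped in each genotype. The mean of 4 B cell markers was 5.86 to 6.82 in untreated and 5.76 to 6.29 in irradiated WT arrays. In KO arrays it spread more widely, from 6.16 to 7.66 untreated and from 5.85 to 7.97 irradiated. The part of this spread in the values of the 9 genes was not tested.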

How the data were processed

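Per the submitters' processing notes, the authors' deposited log2 expression values were made with the R package oligo and RMA, which corrects background, normalizes arrays by quantiles and summarises probes. Tool versions and the genome build were not given in the sources used here. Quantile normalization assumes that arrays share 1 distribution. Precision is limited by the 3 arrays per group. Of 41345 rows, 23521 carry 1 symbol, 1814 several and 16010 none, and symbols were updated by gene ID through RefSeq (23328 matched). The brightest row per gene was used, and genes above 5.29, the 40th percentile of the table, in at least 3 arrays were tested. Differences across all genes were tested in 1 fit of the 4 groups by lmFit and eBayes of limma 3.58.1 (R 4.3.3, two-sided), after a test on simulated data.

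The 9 genes, the lists (from textbook knowledge), tests and alternatives were chosen with earlier results of these data known. Genes named are the 9, Zc3hc1, a fixed set of pathway genes, up to 4 passing members of each list by smallest p in WT cells, and the nearest profiles. Rbl2, Rb1, Cdkn2b, Ccne1, Trim24, Perp, Epor, Klf1, Meis1, Mecom, Procr, Nkg7, Cd3d and Cd3g were named after their values were seen.

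Replicate numbers come from the sample titles, and the labels do not say that they mark shared pools. Deviations from group means of same-numbered untreated and irradiated arrays correlated across genes at 0.49, 0.48 and 0.42 in WT, so these numbers were taken to pair the WT arrays, and at 0.47, -0.24 and -0.12 in KO cells. Untreated KO array 3 correlated with irradiated KO array 2 at 0.52, and untreated 2 with irradiated 3 at 0.44. The labels give no such crossed pairing of KO arrays, and it was not fitted. The main fit held no block, and pairing by number was fitted only among the alternatives. Alternatives were other brightness limits, the mean of rows per gene, other scalings, replicate blocks, only the arrays compared, another prior and leaving out each array.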

Additional observations from a re-analysis of the deposited data

How the results depend on the processing

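The direction of the irradiation change of the 9 genes held in all 558 recalculations (27 values, averages over genotypes included), and the call was lost in 27 of them, for Ppm1d and Btg2. Between 7 and 9 of the 9 genes passed in WT cells and between 8 and 9 in KO cells. Of the 711 recalculations of the 36 genotype and interaction values, 0 passed the test and 82 had the other sign. The sign of the values with such a change is not settled. Values that kept their sign throughout include untreated Mdm4 (0.33 to 0.49) and the interactions of Mdm4 (-0.49 to -0.28) and Btg2 (0.30 to 0.76). These values did not pass the test either. Both Mdm4 values rest on the same untreated arrays, so they are not separate results. Over all genes, the WT count of 742 became 337 and 314 without untreated WT arrays 2 and 3, 350 without irradiated WT array 3 and 1228 with the replicate block within genotype. The KO count of 911 became 483 and 392 when untreated KO array 1 or 2 was left out, 1573, 468 and 533 when irradiated KO array 1, 2 or 3 was, 557 when WT arrays were dropped and 1390 with the block, although same-numbered KO arrays did not all deviate together. For the average genotype difference the count of 1 became 2 with a stricter brightness limit, the mean of rows or array medians subtracted, and 4 with the replicate number as a block. With either replicate block all 9 genes passed in both genotypes, so the block changed no call of the 9 genes. In KO cells Cdk2 passed with either block (adjusted p = 0.044 and 0.035), without irradiated WT array 3 (0.045) and without irradiated KO array 1 (0.032). The causes were not tested. The number of arrays limits what can be seen: the standard error for the 9 genes was 0.12 to 0.26 in the irradiation contrasts and 0.18 to 0.37 in the interaction.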
